A study of Mus musculus with 15 samples.

Results

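The respiratory chain genes of mouse posterior eyecups were followed from the genes for complex I to those for the ATP synthase, in both genomes that encode them. Members were chosen by their symbols. They were the protein-coding nuclear genes whose symbols name a subunit of complexes I to V (Nduf, Sdh, Uqcr and Cyc1, Cox and Atp5 series) and the 13 protein-coding genes of the mitochondrial chromosome. This gave 99 of the 55421 genes in the count tables, of which 86 are nuclear (37 for complex I, 4 for complex II, 9 for complex III, 18 for complex IV and 18 for complex V) and 13 mitochondrial (7, 0, 1, 3 and 2). A few symbols stand apart from the complexes they were counted with, because Ndufa4 is now regarded as a subunit of complex IV, and Ndufa4l2, Atp5s and Cox7a2l are relatives or partners rather than classical subunits.

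The libraries came from 2.5-month-old mice of both sexes, as RNA of posterior eyecups (retinal pigment epithelium, choroid and sclera) from which the neural retina had been removed. There were 4 libraries of wild-type (WT) mice, 6 of mice heterozygous for the FUN025 allele of Tmem135 (FUN025/+) and 5 of homozygous mice (FUN025/FUN025). Tmem135 encodes a transmembrane protein linked to mitochondria and peroxisomes, and the FUN025 mutation is carried in every cell, so no cell type is singled out by the model. Eyecups were pooled from individual mice. The study's supplement lists as many mice of each genotype as there are libraries, with a different balance of males and females between genotypes. The labels do not say which library came from which sex, and sex was not a term in the fit. The comparisons ask how the RNA levels of the chain differed between 1 or 2 copies of the mutant allele and none, and between 1 and 2 copies. Both mutant groups were compared with the same 4 WT libraries, so their differences from WT share the WT error and are given side by side.

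The respiratory chain passes electrons from NADH (complex I) and succinate (complex II) through ubiquinone to complex III, by cytochrome c to complex IV, and finally to oxygen. Complexes I, III and IV pump protons across the inner mitochondrial membrane, and complex V, the ATP synthase, uses the returning protons to make ATP. Most subunits are encoded in the nucleus and imported, whereas a small set of the most hydrophobic core subunits is encoded and translated inside the mitochondrion. The pigment epithelium, muscle and photoreceptors are all tissues with a high oxidative demand.

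Counts on several of the mitochondrial genes have to be read with a nuclear copy in mind. A stretch of chromosome 1 on the minus strand carries 7 annotated copies of mitochondrial genes, from Gm28439 (starting at chr1:24611535) to Gm29216 (ending at chr1:24616197), in the same order as on the mitochondrial chromosome. Among the RNA sequences of the GENCODE M21 annotation, the copies of mt-Co2, mt-Co3, mt-Atp6, mt-Nd4l and part of mt-Nd4 matched their originals at every aligned base, the copy of mt-Nd3 differed at 1 of 345 bases and the copy of part of mt-Co1 at 6 of 492. The first 60 bases of mt-Nd3 and the middle 60 of mt-Co3, mt-Atp6 and mt-Co2 are shown beside their copies as examples of the shared sequence. They are from GRCm38, all in the sense of the gene, with copies on the minus strand. Counts were per whole gene and not per window. The intervals are chrM:9459-9518 and chr1:24613060-24613119 for mt-Nd3 and Gm28438. They are chrM:8968-9027 and chr1:24613551-24613610 for mt-Co3 and Gm28437. For the others they are chrM:8236-8295 and chr1:24614283-24614342 for mt-Atp6 and Gm10925, and chrM:7323-7382 and chr1:24615196-24615255 for mt-Co2 and Gm28661. Capitals mark the only base that differs.

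mt-Nd3: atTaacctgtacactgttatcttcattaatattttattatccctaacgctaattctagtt

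Gm28438: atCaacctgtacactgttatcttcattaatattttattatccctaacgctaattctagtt

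mt-Co3: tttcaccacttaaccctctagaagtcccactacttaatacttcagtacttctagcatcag

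Gm28437: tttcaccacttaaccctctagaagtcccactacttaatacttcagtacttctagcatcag

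mt-Atp6: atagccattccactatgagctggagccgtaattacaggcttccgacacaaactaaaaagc

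Gm10925: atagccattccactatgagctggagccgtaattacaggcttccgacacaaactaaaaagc

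mt-Co2: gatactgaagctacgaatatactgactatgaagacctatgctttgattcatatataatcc

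Gm28661: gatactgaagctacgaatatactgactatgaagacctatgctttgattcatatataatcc

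Of windows of 150 bases, the share found also in another annotated gene was 99.8% for mt-Co3, 99.4% for mt-Co2, 99.4% for mt-Atp6, 98% for mt-Nd4l, 97.0% for mt-Nd3, 59.2% for mt-Nd4 and 23.6% for mt-Co1. No annotated copy covers mt-Atp8, which lies between mt-Co2 and mt-Atp6, and the chromosome 1 sequence between their copies was not analysed here. The remaining mitochondrial genes shared no such window. How a read that matched both places was assigned is not given in the sources used here. The levels of the 6 genes from mt-Co2 to mt-Nd4l are therefore uncertain, and those of mt-Nd4 and mt-Co1 are uncertain in part.

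The deposited counts summed to 10903183 to 20029919 per library, and every WT library (18094977 to 20029919) was deeper than every mutant library (at most 15038383). Levels are given as CPM, the count per 1000000 counts of the library after scaling by trimmed mean of M-values. On this scale 3 counts corresponded to 0.15 to 0.275 CPM. Differences are log2 fold changes from edgeR's quasi-likelihood test fitted to all 15 libraries and 18979 genes, and a gene was called at a Benjamini-Hochberg adjusted p under 0.05. The mutated gene, Tmem135, had 63.8 ± 2.99 CPM (SD, n = 4) in WT, 74.9 ± 7.28 (n = 6) in FUN025/+ and 88.2 ± 4.56 (n = 5) in FUN025/FUN025, and was higher in both mutant groups, with log2 fold changes of 0.23 in FUN025/+ (adjusted p = 0.0248) and 0.47 in FUN025/FUN025 (adjusted p = 1.47e-04) (edgeR). Its count does not read the mutation itself, so it is no check of the genotype labels. The markers of the pigment epithelium were all detected, with a summed level of 21441 to 26900.2 CPM over 12 genes. In bulk RNA, fewer cells of a type and less RNA per cell cannot be told apart.

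Calls among the nuclear genes of the chain were mostly lower in the mutants. Those among the mitochondrial genes were all higher, and all lay in the stretch from mt-Co2 to mt-Nd4l, whose levels are uncertain. Of the 83 nuclear members that passed the filters on low counts and variance, 31 were lower in FUN025/+ than in WT against 6.61% of all genes tested, and 2 (Ndufc2 and Cox7c) were higher against 7.08%. In FUN025/FUN025, 29 were lower against 7.00% of all genes, and the same number of 2 were higher against 7.03%. None of the 13 mitochondrial members was lower in either comparison, and 4 (mt-Nd3, mt-Co2, mt-Co3 and mt-Atp8) were higher in each (7 and 8 had an unadjusted p under 0.05 in either direction by edgeR, and DESeq2 and edgeR on the genotypes compared alone each called 1 lower in FUN025/+ and 0 in FUN025/FUN025). The median log2 fold change was −0.18 and −0.16 over the nuclear members, 0.05 and 0.05 over the mitochondrial members. Among the latter, the 6 genes from mt-Co2 to mt-Nd4l, whose levels are uncertain, had medians of 1.19 and 1.36. The 7 other mitochondrial members had medians of −0.14 and −0.17, close to the nuclear values. With a GC offset the mitochondrial median changed sign (−0.06 and −0.05), and 2 and 3 mitochondrial members were called lower. The mitochondrial median was 0.58 and 0.47 with muscle and photoreceptor levels as covariates. Over all genes tested the median was 0.00 and −0.01. The nuclear log2 fold changes spanned −1.2 to 0.25 in the heterozygotes, and the homozygotes spanned −1.21 to 0.27. For 24 of the 31 lower genes in FUN025/+ and 24 of the 29 in FUN025/FUN025, no mutant library reached the lowest WT library. Over all genes called lower this held for 63.3% and 76.3%. Called or not, 24 and 26 of the 83 nuclear members had every mutant library below WT, against 5.18% and 7.50% of all genes tested. The remaining 3 nuclear members could not be tested: the testis isoforms Cox7b2 (5 counts over all libraries) and Cox8c (0 counts), and a second gene listed as Atp5o (ENSMUSG00000116933, 0 counts).

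One WT library stood high for these genes. The summed level of the nuclear members was 9528, 9689, 9689 and 10883 CPM in WT, 8127 to 9760.2 with a median of 9081 in FUN025/+, and 8784, 8869, 9286, 9596 and 9479 in FUN025/FUN025. WT replicate 4 lay above all other libraries, and the mutant sums overlapped with those of the other WT libraries. Without that library, 17 nuclear members were called lower in FUN025/+ and 11 in FUN025/FUN025, with medians of −0.12 and −0.09. Calls over all genes, in either direction, fell as well, to 1433 of an initial 2598 (FUN025/+) and to 1519 of an initial 2663 (FUN025/FUN025). Leaving out FUN025/FUN025 replicate 1 or replicate 2 gave 18 lower genes in FUN025/FUN025. WT replicate 4 had the highest summed level of 28 sarcomere and skeletal muscle genes (15169 CPM). Genes called lower in every one of the 15 fits that left out a single library numbered 17 in FUN025/+ and 11 in FUN025/FUN025. The 11 were Atp5e, Atp5j2, Atp5k, Cox7a1, Cox7a2, Ndufa3, Ndufa4, Ndufb10, Ndufb11, Ndufc1 and Uqcrh. The 17 in FUN025/+ were these and Cox6b1, Cox8b, Ndufa1, Ndufa2, Ndufb2 and Ndufb9, and every other lower call was lost in at least 1 of these fits.

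**Figure D1:**
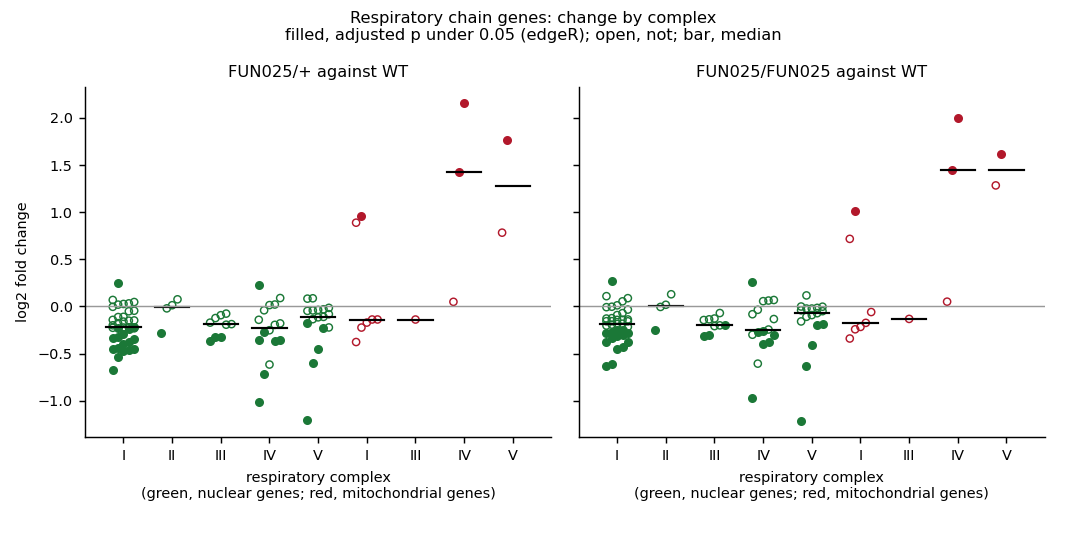
Log2 fold change (vertical axis) of each tested respiratory chain gene against WT, in FUN025/+ and FUN025/FUN025, by complex (horizontal axis; green, nuclear genes; red, mitochondrial genes). Filled points had an adjusted p under 0.05 by edgeR, open points did not, and bars mark medians. The nuclear genes of complexes I, III, IV and V sit mostly below 0, those of complex II lie around 0 with the exception of Sdhb, and the mitochondrial genes of complexes IV and V include the highest points.

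Complex I, the entry point for electrons from NADH, had 16 of its 37 nuclear genes lower in FUN025/+ and 14 in FUN025/FUN025. In each comparison 1 was higher. Over all genes tested, 6.61% and 7.00% were lower and 7.08% and 7.03% higher. The nuclear genes of complex I had median log2 fold changes of −0.22 and −0.18. The 7 nuclear core subunits, which hold the flavin and iron-sulfur centres, had medians of −0.15 and −0.14, and 1 of them, Ndufs8, was called lower in each comparison. Of the other 30, which are accessory or related proteins, 15 and 13 were called lower, with medians of −0.22 and −0.20. The difference between core and accessory genes was not tested.

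Ndufa3, an accessory subunit of the membrane arm side of the complex, stood at 70.0, 73.2, 77.1 and 96.9 CPM in the 4 WT libraries, 46.3 to 54.2 with a median of 49.6 in the 6 FUN025/+ libraries, and 51.2, 48.3, 47.0, 54.1 and 54.6 in the 5 FUN025/FUN025 libraries. All 11 mutant libraries lay below all 4 WT libraries. The log2 fold changes were −0.67 ± 0.08 (SE) in FUN025/+ (adjusted p = 1.63e-05, edgeR) and −0.64 ± 0.08 in FUN025/FUN025 (adjusted p = 4.03e-05), or 1.60-fold and 1.55-fold lower. Ndufb11, an X-linked accessory subunit of the membrane arm, gave 168, 162, 169 and 204 CPM in the 4 WT libraries, 109 to 134 with a median of 122 in the 6 FUN025/+ libraries, and 118, 105, 109, 119 and 126 in the 5 FUN025/FUN025 libraries. Its groups did not overlap either, with log2 fold changes of −0.54 ± 0.07 (SE) in FUN025/+ (adjusted p = 8.73e-05, edgeR) and −0.61 ± 0.08 in FUN025/FUN025 (adjusted p = 3.22e-05). Part of its sequence (29.0% of stretches of 31 bases) is found also in other annotated genes, with 19.1% in Gm6444.

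Ndufb10, another accessory subunit of the membrane arm, was measured at 91.9, 92.2, 97.0 and 108 CPM in the 4 WT libraries, 63.6 to 75.7 with a median of 71.1 in the 6 FUN025/+ libraries, and 74.6, 67.9, 73.2, 80.2 and 78.6 in the 5 FUN025/FUN025 libraries. The mutant libraries were again all lower, with log2 fold changes of −0.46 in FUN025/+ (adjusted p = 6.73e-05) and −0.38 in FUN025/FUN025 (adjusted p = 5.52e-04) (edgeR). Ndufc1, a small membrane subunit, was at 46.0, 43.8, 43.7 and 54.6 CPM in the 4 WT libraries, 30.4 to 36.7 with a median of 35.4 in the 6 FUN025/+ libraries, and 33.6, 31.3, 35.3, 36.7 and 35.5 in the 5 FUN025/FUN025 libraries. Its log2 fold changes were −0.44 in FUN025/+ (adjusted p = 3.62e-04) and −0.45 in FUN025/FUN025 (adjusted p = 4.19e-04) (edgeR), with no overlap between WT and mutant libraries. Its neighbour by name, Ndufc2, went the other way, at 61.1, 64.1, 64.2 and 73.7 CPM in the 4 WT libraries, 72.5 to 83.7 with a median of 78.5 in the 6 FUN025/+ libraries, and 75.5, 78.2, 82.0, 79.8 and 80.0 in the 5 FUN025/FUN025 libraries. Ndufc2 had log2 fold changes of 0.25 in FUN025/+ (adjusted p = 0.00549) and 0.27 in FUN025/FUN025 (adjusted p = 0.00392) (edgeR), and the lowest FUN025/+ library lay within the WT range whereas no FUN025/FUN025 library did.

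Ndufb9, an accessory subunit, averaged 44.2 ± 3.08 CPM (SD, n = 4) in WT, 31.9 ± 4.18 (n = 6) in FUN025/+ and 36.4 ± 3.63 (n = 5) in FUN025/FUN025, with log2 fold changes of −0.47 in FUN025/+ (adjusted p = 0.00180) and −0.28 in FUN025/FUN025 (adjusted p = 0.0489) (edgeR). Ndufa1, an X-linked subunit needed for assembly of the membrane arm, averaged 45.2 ± 5.20 CPM (SD, n = 4) in WT, 33.2 ± 3.19 (n = 6) in FUN025/+ and 35.9 ± 3.25 (n = 5) in FUN025/FUN025, with log2 fold changes of −0.45 in FUN025/+ (adjusted p = 0.00167) and −0.34 in FUN025/FUN025 (adjusted p = 0.0151) (edgeR). Ndufa4 had 174, 181, 183 and 209 CPM in the 4 WT libraries, 119.6 to 162 with a median of 139 in the 6 FUN025/+ libraries, and 137, 133, 152, 145 and 151 in the 5 FUN025/FUN025 libraries. Its log2 fold changes were −0.40 in FUN025/+ (adjusted p = 0.00138) and −0.38 in FUN025/FUN025 (adjusted p = 0.00259) (edgeR), and no mutant library reached the WT range. Its hypoxia-inducible relative Ndufa4l2, at a much lower level of 11.2 ± 1.81 CPM (SD, n = 4) in WT, 8.2 ± 1.2 (n = 6) in FUN025/+ and 8.34 ± 0.939 (n = 5) in FUN025/FUN025, was lower, with log2 fold changes of −0.46 in FUN025/+ (adjusted p = 0.0211) and −0.43 in FUN025/FUN025 (adjusted p = 0.0343) (edgeR). The other complex I genes called lower in FUN025/+ were Ndufa2, Ndufa5, Ndufa11, Ndufa12, Ndufb2, Ndufs5 and Ndufv3, and in FUN025/FUN025 they were Ndufa2, Ndufa5, Ndufb2, Ndufs5 and Ndufv3.

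Complex II, which links the tricarboxylic acid cycle to the chain and holds no mitochondrial subunit, had medians of 0.00 and 0.01 over its 4 genes. Sdha, the flavin-binding catalytic subunit, stood at 387, 373, 369.7 and 368 CPM in the 4 WT libraries, 365 to 421 with a median of 396 in the 6 FUN025/+ libraries, and 387, 407, 399.7, 432 and 423 in the 5 FUN025/FUN025 libraries. The FUN025/+ libraries overlapped with WT, whereas the lowest FUN025/FUN025 library lay marginally above the highest WT library. Neither difference passed the test, with log2 fold changes of 0.08 ± 0.05 (SE) in FUN025/+ (adjusted p = 0.341, edgeR) and 0.13 ± 0.05 in FUN025/FUN025 (adjusted p = 0.11). Sdhb, the iron-sulfur subunit, was the exception, at 108, 114, 103 and 129 CPM in the 4 WT libraries, 80.2 to 105 with a median of 90.9 in the 6 FUN025/+ libraries, and 97.9, 92.1, 89.9, 95.0 and 103 in the 5 FUN025/FUN025 libraries. It was lower, with log2 fold changes of −0.29 in FUN025/+ (adjusted p = 0.0144) and −0.25 in FUN025/FUN025 (adjusted p = 0.0350) (edgeR), and the FUN025/+ libraries overlapped with WT while the FUN025/FUN025 libraries did not. The Sdhb call held in 14 of 15 fits without a library in FUN025/+ (not without WT replicate 4) and in 9 of 15 in FUN025/FUN025, and the GC offset and the muscle and photoreceptor covariates each ended both calls. Upper quartile scaling and a fit to protein-coding genes alone ended the call in FUN025/FUN025. The membrane anchors Sdhc (means of 140.3, 142 and 139.8 CPM in WT, FUN025/+ and FUN025/FUN025) and Sdhd (109.9, 108 and 111 CPM) gave log2 fold changes between −0.02 and 0.02. Summed over the complex, the level was 738 ± 21.6 CPM (SD, n = 4) in WT, 738 ± 47.4 (n = 6) in FUN025/+ and 756 ± 23.4 (n = 5) in FUN025/FUN025.

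Complex III, which carries electrons from ubiquinol to cytochrome c, had 3 of 9 nuclear genes lower in each comparison. Over all genes tested, 6.61% and 7.00% were lower. The nuclear genes of complex III had medians of −0.19 and −0.19. All 9 log2 fold changes were below 0 in each comparison. Uqcrh, the acidic hinge protein that contacts cytochrome c1, was at 108, 113, 106 and 130.2 CPM in the 4 WT libraries, 81.9 to 97.2 with a median of 92.3 in the 6 FUN025/+ libraries, and 89.7, 85.2, 91.2, 101 and 94.5 in the 5 FUN025/FUN025 libraries. No mutant library reached the WT range, and the log2 fold changes were −0.32 ± 0.06 (SE) in FUN025/+ (adjusted p = 0.00219, edgeR) and −0.31 ± 0.07 in FUN025/FUN025 (adjusted p = 0.00432). Uqcr11, the smallest subunit, had means of 81.5, 63.0 and 65.6 CPM in WT, FUN025/+ and FUN025/FUN025, with log2 fold changes of −0.37 in FUN025/+ (adjusted p = 0.0138) and −0.31 in FUN025/FUN025 (adjusted p = 0.0390) (edgeR). Uqcr10, a small subunit near cytochrome c1, had means of 81.3, 65.1 and 70.4 CPM and passed the test in FUN025/+ alone, with log2 fold changes of −0.32 in FUN025/+ (adjusted p = 0.0121) and −0.21 in FUN025/FUN025 (adjusted p = 0.101) (edgeR). Uqcrc1, a large core protein on the matrix side, had means of 179, 159 and 156 CPM and passed it in FUN025/FUN025 alone, with log2 fold changes of −0.17 in FUN025/+ (adjusted p = 0.0538) and −0.19 in FUN025/FUN025 (adjusted p = 0.0372) (edgeR). In FUN025/FUN025 the Uqcr11 call held in 8 and the Uqcrc1 call in 7 of the 15 fits that left out a library, and in FUN025/+ Uqcrc1 was called without FUN025/+ replicate 6 and by DESeq2. The difference between the mutant groups was not past the threshold for either gene (adjusted p = 0.994 and 1.00, edgeR).

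Complex IV, cytochrome c oxidase, is built with tissue isoforms of several nuclear subunits, and both muscle-type and widely expressed forms were among the genes called. Of 16 genes tested, 6 were lower in each comparison and 1 was higher, with medians of −0.22 and −0.25. Over all genes tested, 6.61% and 7.00% were lower and 7.08% and 7.03% higher. Cox7a1, the isoform of heart and skeletal muscle, stood at 26.9, 23.6, 22.5 and 36.1 CPM in the 4 WT libraries, 9.10 to 18.5 with a median of 12.4 in the 6 FUN025/+ libraries, and 10.3, 11.7, 15, 18.5 and 14.1 in the 5 FUN025/FUN025 libraries. Every mutant library lay below every WT library. The log2 fold changes were −1.01 ± 0.20 (SE) in FUN025/+ (adjusted p = 0.00455, edgeR) and −0.98 ± 0.21 in FUN025/FUN025 (adjusted p = 0.00767), or 2.02-fold and 1.97-fold lower. Its widely expressed counterpart Cox7a2 was at 75.8, 78.0, 75.8 and 87.2 CPM in the 4 WT libraries, 54.3 to 72.8 with a median of 60.2 in the 6 FUN025/+ libraries, and 59.8, 56.2, 58.5, 67.4 and 63.0 in the 5 FUN025/FUN025 libraries. It was also lower without overlap, with log2 fold changes of −0.37 in FUN025/+ (adjusted p = 0.00216) and −0.38 in FUN025/FUN025 (adjusted p = 0.00237) (edgeR).

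Cox8b, a muscle isoform of subunit VIII, was at 59.4, 76.6, 72.6 and 83.5 CPM in the 4 WT libraries, 36.2 to 48.7 with a median of 46.7 in the 6 FUN025/+ libraries, and 47.8, 52.2, 61.1, 56.9 and 60.1 in the 5 FUN025/FUN025 libraries. The FUN025/+ libraries lay below all WT libraries, whereas 2 FUN025/FUN025 libraries reached the lowest WT value. The log2 fold changes were −0.72 ± 0.10 (SE) in FUN025/+ (adjusted p = 1.31e-04, edgeR) and −0.40 ± 0.10 in FUN025/FUN025 (adjusted p = 0.0157). Between the mutant groups Cox8b differed by 0.32 on the log2 scale (adjusted p = 0.246, edgeR), the smallest adjusted p of any member in that comparison. Cox6a2, the muscle isoform of subunit VIa, had 54.8, 54.0, 42.9 and 77.6 CPM in the 4 WT libraries, 27.5 to 54.2 with a median of 30.8 in the 6 FUN025/+ libraries, and 30.4, 40.0, 41.8, 43.5 and 32.6 in the 5 FUN025/FUN025 libraries. Its libraries were spread widely and overlapped, and the log2 fold changes of −0.62 ± 0.22 (SE) in FUN025/+ (adjusted p = 0.0849, edgeR) and −0.61 ± 0.23 in FUN025/FUN025 (adjusted p = 0.103) did not pass the test. In Cox7a1, Cox6a2 and Cox8b, WT replicate 4 was the highest of all libraries.

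The widely expressed partners of these isoforms gave smaller values. Cox8a had means of 237, 241 and 247 CPM in WT, FUN025/+ and FUN025/FUN025 (log2 fold changes 0.02 and 0.06), and Cox6a1 had 133, 134 and 139 CPM (0.01 and 0.06). Cox4i1, the main form of the regulatory subunit IV, had 351, 342 and 343 CPM (−0.04 and −0.04), and Cox4i2, its hypoxia-responsive form, had 5.14, 4.55 and 4.17 CPM (−0.18 and −0.30). None of these passed the test (adjusted p of 0.210 or more, edgeR). Cox6b1, which joins the monomers of the dimer on the outer face, was lower at means of 112, 88 and 93.5 CPM, with log2 fold changes of −0.35 in FUN025/+ (adjusted p = 0.00191) and −0.26 in FUN025/FUN025 (adjusted p = 0.0173) (edgeR). Its testis-type form Cox6b2, at 38.1, 29.6 and 30.9 CPM, was lower, with log2 fold changes of −0.36 in FUN025/+ (adjusted p = 0.0105) and −0.30 in FUN025/FUN025 (adjusted p = 0.0335) (edgeR).

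Cox7b, a small membrane subunit, was lower at means of 88.5, 73.3 and 73.5 CPM, with log2 fold changes of −0.27 in FUN025/+ (adjusted p = 0.0113) and −0.27 in FUN025/FUN025 (adjusted p = 0.0153) (edgeR). Cox6c, another small subunit, had 135, 122 and 127 CPM and log2 fold changes of −0.14 in FUN025/+ (adjusted p = 0.105) and −0.08 in FUN025/FUN025 (adjusted p = 0.385) (edgeR), which did not pass. Cox7a2l, a factor that joins complexes III and IV into supercomplexes, gave log2 fold changes of 0.09 and 0.07 at 102, 108 and 107 CPM. Cox7c was the gene called higher, at 81.4, 92.5, 85.0 and 102 CPM in the 4 WT libraries, 95.6 to 112 with a median of 108 in the 6 FUN025/+ libraries, and 101, 105, 113, 115 and 106 in the 5 FUN025/FUN025 libraries. Its libraries overlapped, and its log2 fold changes were 0.23 in FUN025/+ (adjusted p = 0.0252) and 0.26 in FUN025/FUN025 (adjusted p = 0.0148) (edgeR). Of its 150-base windows, 24.6% are also found in other annotated genes, with 13.6% in Gm10012, so its count is uncertain.

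Markers of other tissues were followed beside these genes. All 28 genes of a sarcomere and skeletal muscle list were tested, none was at 0, and their summed level was 8535 to 15169 CPM in WT, 4691 to 11476 in FUN025/+ and 6849 to 8428 in FUN025/FUN025. The FUN025/+ sums overlapped with WT, and the FUN025/FUN025 sums lay below the lowest WT library. Of the 28 genes, 8 (28.6%) were called lower in FUN025/+ and 6 (21.4%) in FUN025/FUN025, with medians of −0.64 and −0.61. Over all genes tested, 6.61% and 7.00% were lower, and these shares also stand beside the lower calls of the lists that follow. Of 22 rod and cone genes, 21 were tested, with a summed level of 868 to 3329 CPM in WT, 688 to 1402 in FUN025/+ and 664 to 1049.9 in FUN025/FUN025. These sums overlapped between all genotypes. Of the 21 genes, 0 and 2 were called lower by edgeR (15 and 16 had an unadjusted p under 0.05, medians −1.72 and −1.65). The channel gene Cnga3, which was not tested, was the lowest of the list. With the levels of both lists as terms in the fit, 6 nuclear respiratory genes were called lower in FUN025/+ and 6 in FUN025/FUN025, with medians of −0.12 and −0.10. That fit gave 244 and 597 calls over all genes in either direction, against 2598 and 2663 without the terms. The part of muscle and photoreceptor RNA in the nuclear result was not tested further. Of 10 endothelial genes, 3 and 6 were lower (medians −0.16 and −0.33, with all 10 below 0 in FUN025/FUN025), beside 6.61% and 7.00% of all genes. Of 10 macrophage genes 1 was higher in FUN025/FUN025, as was 1 of 6 melanocyte genes, and no others of these lists were called in either comparison. Of 12 pigment epithelium, 6 smooth muscle and 8 fibroblast and sclera genes, 0 were called by edgeR (2, 2 and 0 in FUN025/+ and 2, 1 and 2 in FUN025/FUN025 had an unadjusted p under 0.05), and the pigment epithelium list had medians of 0.07 and −0.08.

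**Figure D2:**
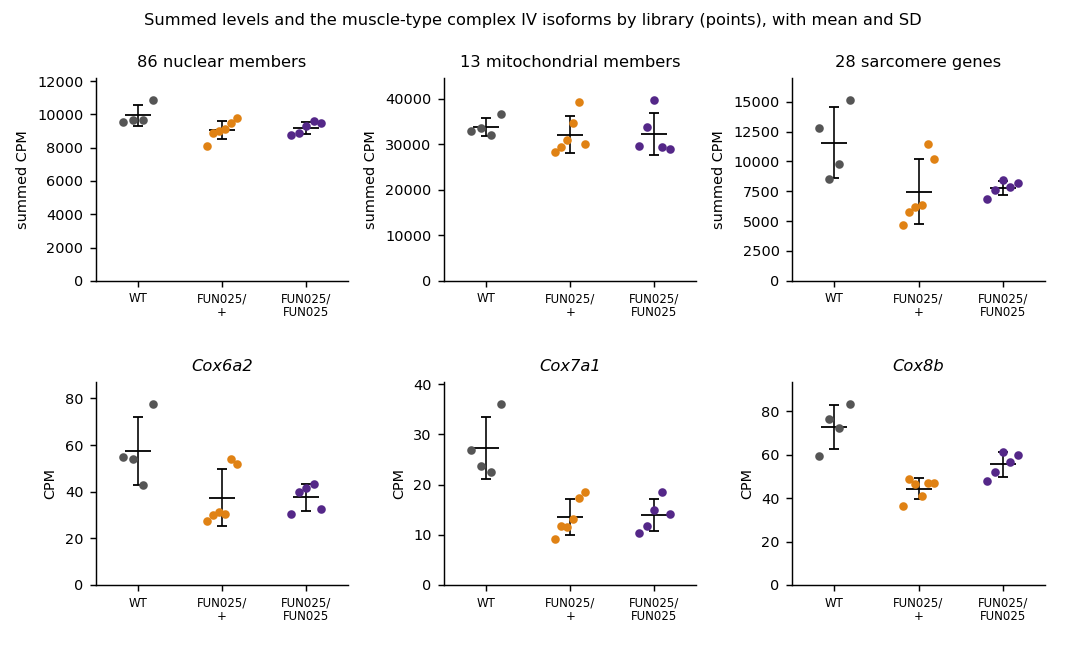
Summed CPM of the nuclear members, the mitochondrial members and 28 sarcomere genes, and CPM of the muscle-type complex IV isoforms Cox6a2, Cox7a1 and Cox8b (vertical axes), in each library (points) by genotype, with the mean and SD. WT replicate 4 is the highest library for the nuclear sum (10883 CPM) and for Cox7a1 (36.1 CPM), and all 11 mutant libraries lie below all WT libraries for Cox7a1.

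Complex V, the ATP synthase, held the largest change among the nuclear members, although most of its genes were not called. Of 17 genes tested, 5 were lower in each comparison (Atp5k, Atp5e, Atp5j2, Atp5j and Atp5h), with medians of −0.11 and −0.07. Over all genes tested, 6.61% and 7.00% were lower. Atp5k, which encodes subunit e of the membrane part and takes part in joining the enzyme into dimers, stood at 69.3, 69.3, 65.2 and 90.5 CPM in the 4 WT libraries, 28.8 to 34.3 with a median of 32.3 in the 6 FUN025/+ libraries, and 30.3, 26.1, 35, 35.1 and 32.2 in the 5 FUN025/FUN025 libraries. All 11 mutant libraries were at about the same level, below every WT library. The log2 fold changes were −1.2 ± 0.09 (SE) in FUN025/+ (adjusted p = 1.45e-07, edgeR) and −1.21 ± 0.10 in FUN025/FUN025 (adjusted p = 2.26e-07), or 2.30-fold and 2.32-fold lower, and without WT replicate 4 they were −1.08 and −1.09. Of stretches of 31 bases, 20.5% occur also in other annotated genes, with 14.4% in the pseudogene Atp5k-ps2.

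Atp5e, the epsilon subunit of the central stalk, gave 95.9, 101, 98.2 and 130.2 CPM in the 4 WT libraries, 66.7 to 77.4 with a median of 69.1 in the 6 FUN025/+ libraries, and 70.2, 60.1, 64.2, 76.7 and 71.3 in the 5 FUN025/FUN025 libraries. No mutant library reached the WT range, and the log2 fold changes were −0.60 ± 0.08 (SE) in FUN025/+ (adjusted p = 9.49e-05, edgeR) and −0.63 ± 0.08 in FUN025/FUN025 (adjusted p = 7.49e-05). Atp5j2, subunit f of the membrane part, was at 99.4, 106, 98.4 and 127 CPM in the 4 WT libraries, 66.6 to 86.7 with a median of 78.5 in the 6 FUN025/+ libraries, and 78.5, 68.9, 87.1, 86.8 and 84.2 in the 5 FUN025/FUN025 libraries. It was lower, with log2 fold changes of −0.45 in FUN025/+ (adjusted p = 0.00163) and −0.41 in FUN025/FUN025 (adjusted p = 0.00464) (edgeR), again without overlap. The catalytic head did not pass the test. Atp5b, the beta subunit that carries the catalytic sites, stood at 1033, 1016, 1040.3 and 1045 CPM in the 4 WT libraries, 923 to 1108 with a median of 1013 in the 6 FUN025/+ libraries, and 943, 1012, 1067, 1049 and 1043 in the 5 FUN025/FUN025 libraries. Its groups overlapped, with log2 fold changes of −0.03 ± 0.06 (SE) and −0.01 ± 0.06. The alpha subunit Atp5a1 had means of 865, 856 and 863 CPM in WT, FUN025/+ and FUN025/FUN025.

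The ring of subunit c is encoded by 3 genes whose mature proteins are identical. Atp5g1 had means of 92.9, 89.9 and 90.3 CPM in WT, FUN025/+ and FUN025/FUN025, with log2 fold changes of −0.05 and −0.04. Atp5g3, the most abundant of them, had 227, 209.6 and 216 CPM (−0.12 and −0.07), and Atp5g2 had 68.2, 72.5 and 74.0 CPM (0.09 and 0.12). None of the ring genes passed the test (adjusted p of 0.220 or more, edgeR), and 85.2% of the 150-base windows of Atp5g2 are also found in Gm10175.

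**Figure D3:**
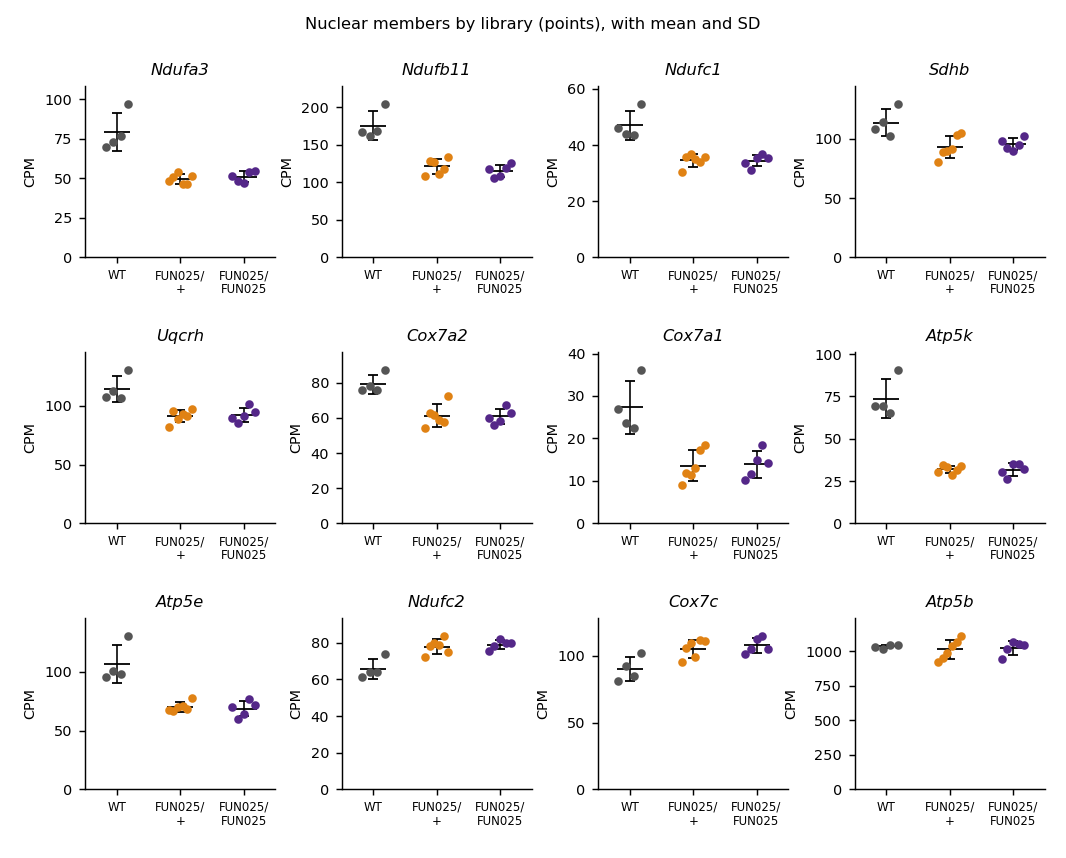
CPM (vertical axes) of 12 nuclear members in each library (points) by genotype, with the mean and SD. For Atp5k the WT libraries sit at 65.2 to 90.5 CPM and the mutant libraries at 26.1 to 35.1 CPM, and Ndufc2 is higher in the mutants.

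Per kilobase of the principal transcript, the nuclear members spanned a wide range of levels in WT. Atp5b was highest (539 CPM per kilobase), followed by Cox4i1 (459), Cox8a (431), Atp5a1 (349.9) and Atp5g3 (314), none of which was called. The next in this order, Ndufa4 (306) and Atp5e (252), were both called lower. The 7 mitochondrial genes outside the stretch from mt-Co2 to mt-Nd4l were above all of these, from mt-Nd4 at 1664 to mt-Co1 at 8744 CPM per kilobase. Both mt-Nd4 and mt-Co1 have partial copies on chromosome 1, so their levels are uncertain in part. The 6 genes of that stretch were listed at 4.28 (mt-Atp8) to 64.4 (mt-Atp6) CPM per kilobase. The RNA was selected on its poly(A) tail, and mitochondrial RNAs carry short tails, so levels between the genomes are not strictly comparable.

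Among the mitochondrial members, the 7 genes outside the stretch from mt-Co2 to mt-Nd4l held most of the counts, with medians of −0.14 and −0.17. None of them was called by edgeR in the main fit (2 in each comparison had an unadjusted p under 0.05). With a GC offset, 2 and 3 mitochondrial members were called lower. Without FUN025/+ replicate 5, 2 and 1 were, and without FUN025/FUN025 replicate 3, 1 and 2 were. A fit to the genotypes compared alone called 1 lower in FUN025/+. Of the 7, mt-Co1 and mt-Nd4 have partial copies on chromosome 1, so their counts are uncertain in part. mt-Co1, the catalytic subunit of complex IV (chrM:5328-6872), stood at 13280.4, 13379, 13076 and 14305 CPM in the 4 WT libraries, 12281 to 16730.5 with a median of 13448 in the 6 FUN025/+ libraries, and 13111, 14697, 17111, 12420.0 and 12630.4 in the 5 FUN025/FUN025 libraries. The groups overlapped fully, and the log2 fold changes were 0.05 ± 0.10 (SE) in FUN025/+ (adjusted p = 0.777, edgeR) and 0.05 ± 0.10 in FUN025/FUN025 (adjusted p = 0.779). mt-Cytb, the cytochrome b of complex III, averaged 6603 ± 459.6 CPM (SD, n = 4) in WT, 5998 ± 779 (n = 6) in FUN025/+ and 6025 ± 871 (n = 5) in FUN025/FUN025, with log2 fold changes of −0.14 and −0.13. The complex I genes gave log2 fold changes of −0.14 and −0.06 for mt-Nd1, −0.17 and −0.24 for mt-Nd5, and −0.22 and −0.22 for mt-Nd4. The largest of them was that of mt-Nd2, with means of 2208, 1700.3 and 1745 CPM and log2 fold changes of −0.38 in FUN025/+ (adjusted p = 0.0589) and −0.34 in FUN025/FUN025 (adjusted p = 0.0997) (edgeR). mt-Nd6, the only protein-coding gene on the other strand (chrM:13552-14070), gave −0.14 and −0.17, and since the strand setting of the counting is not given in the sources used here its count may include reads from the opposite strand.

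The 6 genes from mt-Co2 to mt-Nd4l stood apart, with medians of 1.19 and 1.36. mt-Co2, the copper-binding subunit of complex IV (chrM:7013-7696), was at 30.3, 33.2, 29.7 and 39.5 CPM in the 4 WT libraries, 75.2 to 109 with a median of 85.8 in the 6 FUN025/+ libraries, and 91.4, 97.3, 102, 80.7 and 80.2 in the 5 FUN025/FUN025 libraries. Every mutant library was above every WT library. The log2 fold changes were 1.43 ± 0.11 (SE) in FUN025/+ (adjusted p = 9.68e-07, edgeR) and 1.45 ± 0.12 in FUN025/FUN025 (adjusted p = 8.58e-07), or 2.70-fold and 2.72-fold higher. mt-Co3, the third core subunit of complex IV (chrM:8607-9390), was at 17.5, 33.7, 19.5 and 18.9 CPM in the 4 WT libraries, 77.1 to 179.9 with a median of 84 in the 6 FUN025/+ libraries, and 90.0, 94.1, 103, 78.9 and 83.2 in the 5 FUN025/FUN025 libraries. It was higher without overlap, with log2 fold changes of 2.16 ± 0.28 (SE) in FUN025/+ (adjusted p = 3.10e-04, edgeR) and 2.0 ± 0.28 in FUN025/FUN025 (adjusted p = 5.38e-04).

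mt-Nd3, a small core subunit of complex I (chrM:9459-9806), gave 7.39, 13.2, 7.38 and 7.66 CPM in the 4 WT libraries, 15.7 to 22.3 with a median of 16.3 in the 6 FUN025/+ libraries, and 17.4, 18.5, 20.7, 18.6 and 14.3 in the 5 FUN025/FUN025 libraries. Its log2 fold changes were 0.96 in FUN025/+ (adjusted p = 9.31e-04) and 1.01 in FUN025/FUN025 (adjusted p = 6.74e-04) (edgeR), without overlap. mt-Atp8, a small subunit of the ATP synthase (chrM:7766-7969), had few reads, at 1.11, 0.967, 0.748 and 0.666 CPM in the 4 WT libraries, 1.96 to 4.60 with a median of 2.74 in the 6 FUN025/+ libraries, and 3.41, 2.46, 2.65, 2.30 and 2.63 in the 5 FUN025/FUN025 libraries. It was higher without overlap, with log2 fold changes of 1.77 in FUN025/+ (adjusted p = 9.17e-05) and 1.62 in FUN025/FUN025 (adjusted p = 2.45e-04) (edgeR), and its end overlaps the start of mt-Atp6. mt-Atp6, subunit a of the proton channel (chrM:7927-8607), was at 40.8, 16.1, 57.6 and 60.9 CPM in the 4 WT libraries, 66.4 to 91.3 with a median of 71.1 in the 6 FUN025/+ libraries, and 68.4, 79.2, 90.0, 228 and 68.6 in the 5 FUN025/FUN025 libraries. All mutant libraries exceeded all WT libraries, but the log2 fold changes of 0.78 ± 0.41 (SE) in FUN025/+ (adjusted p = 0.229, edgeR) and 1.28 ± 0.42 in FUN025/FUN025 (adjusted p = 0.0632) did not pass the test. mt-Nd4l (chrM:9877-10173), a small core subunit of complex I, averaged 7.68 ± 3.74 CPM (SD, n = 4) in WT, 14.2 ± 5.91 (n = 6) in FUN025/+ and 12.6 ± 1.42 (n = 5) in FUN025/FUN025, with log2 fold changes of 0.89 in FUN025/+ (adjusted p = 0.0792) and 0.72 in FUN025/FUN025 (adjusted p = 0.167) (edgeR). Per kilobase, mt-Co2 stood at 48.5 CPM in WT, far below mt-Co1.

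Of the 7 copies on chromosome 1, 6 were called higher in each comparison, beside 7.08% and 7.03% of all genes tested. The copies had medians of 1.59 and 1.61. Mean levels in WT, FUN025/+ and FUN025/FUN025 were 15, 47.4 and 49.8 CPM for Gm28661 (the copy of mt-Co2), 19.3, 67.3 and 72.8 CPM for Gm10925 (mt-Atp6). They were 1.48, 4.51 and 4.63 CPM for Gm28438 (mt-Nd3), 3.25, 8.09 and 8.54 CPM for Gm10222 (mt-Nd4l). For the partial copies they were 8.68, 26.2 and 26.3 CPM for Gm28439 (part of mt-Nd4) and 9.88, 25.7 and 26.7 CPM for Gm29216 (part of mt-Co1). Gm28661 had log2 fold changes of 1.66 in FUN025/+ (adjusted p = 1.06e-06) and 1.73 in FUN025/FUN025 (adjusted p = 7.11e-07) (edgeR), against those of mt-Co2 above. The exception, Gm28437 (mt-Co3), was at 14.7, 17.8, 14.9 and 185 CPM in the WT libraries, so that its WT replicate 4 lay far above the others. Summed over the 6 mitochondrial genes, the level was 106 to 133 CPM in WT, 252 to 412 in FUN025/+ and 259.6 to 421 in FUN025/FUN025. Whether the higher counts come from the mitochondrial chromosome or from chromosome 1 cannot be told apart for sequences that are identical.

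**Figure D4:**
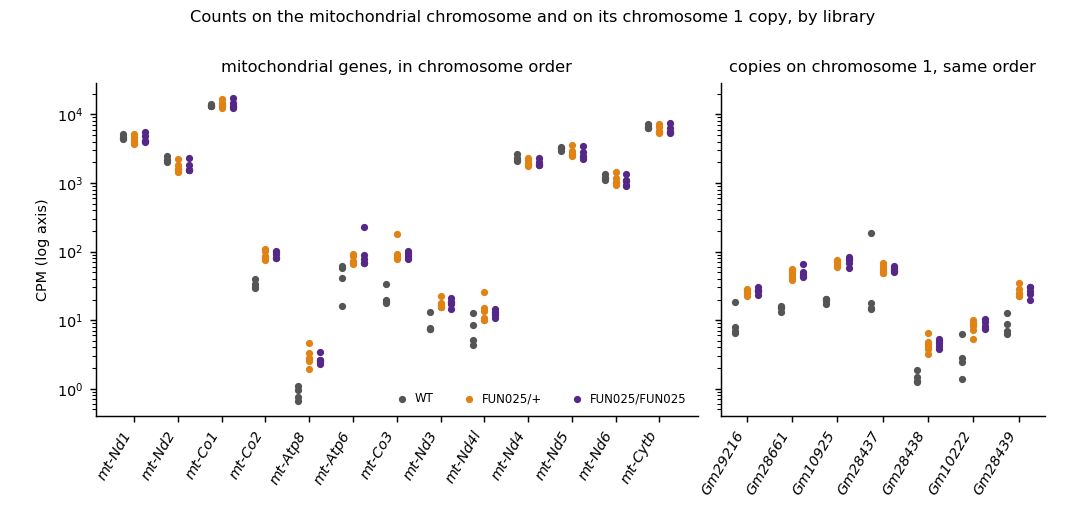
CPM (log axis) of the 13 mitochondrial members and of the 7 annotated copies on chromosome 1 in each library (points), coloured by genotype. Mutant libraries lie above WT for most genes from mt-Co2 to mt-Nd4l and for the copies other than Gm10222 and Gm28437, whereas mt-Co1 overlaps at 12281 to 17111 CPM.

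Summed over all 13 genes, the mitochondrial level was 32839, 33607, 32124 and 36559 CPM in WT, 28290.5 to 39187 with a median of 30566 in FUN025/+, and 29556, 33856, 39770.4, 29324 and 28962 in FUN025/FUN025. The groups overlapped. The ratio of the mitochondrial to the nuclear sum was 3.32 to 3.47 in WT, 3.09 to 4.14 in FUN025/+ and 3.06 to 4.28 in FUN025/FUN025, so the WT values lay inside the range of both mutant groups. The mitochondrial ribosomal RNAs, which are no members, had means of 1883, 1175 and 1356 CPM for mt-Rnr2 and 729.6, 559 and 612 CPM for mt-Rnr1. The log2 fold changes of mt-Rnr2 were −0.68 in FUN025/+ (adjusted p = 0.00490) and −0.47 in FUN025/FUN025 (adjusted p = 0.0421) (edgeR), and those of mt-Rnr1 were −0.38 in FUN025/+ (adjusted p = 0.0717) and −0.25 in FUN025/FUN025 (adjusted p = 0.254).

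Between the mutant groups no member passed the test. With 2 copies of the allele against 1, 0 of the 96 tested members were called by edgeR, against 0.195% of all genes lower and 0.327% higher, and DESeq2 called 0 as well. An unadjusted p under 0.05 was reached by 2 members, Cox8b and Ndufb9, both higher in FUN025/FUN025 (log2 fold changes 0.32 and 0.19, named after their values were seen). The median log2 fold change was 0.02 over the nuclear and 0.01 over the mitochondrial members. For Atp5k the difference was −0.01 ± 0.09 (SE), and for mt-Co2 it was 0.01 ± 0.10, small beside the differences of either mutant group from WT.

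Lower calls were less frequent among nuclear members of 1500 bases or more than among shorter ones. The choice by symbol did not use length, but 40 of the 83 tested members are under 800 bases. The shares called lower in FUN025/+ and FUN025/FUN025 were 47.5% and 42.5% under 800 bases. They were 41.7% and 37.5% between 800 and 1500 bases, and 10.5% and 15.8% at 1500 bases or more. The difference between these shares was not tested. Of 40 nuclear members whose principal transcript is under 800 bases, 19 were lower in FUN025/+ and 17 in FUN025/FUN025, with medians of −0.23 and −0.21. Of all protein-coding genes tested, 24.5% under 600 bases were lower in each comparison, and 9.30% and 7.97% of those with 600 to 800 bases. Of 24 between 800 and 1500 bases, 10 and 9 were lower (−0.19 and −0.14), beside 11.8% and 8.92% of all protein-coding genes with 800 to 1000 bases and 8.31% and 8.52% with 1000 to 1500. Of 19 with 1500 bases or more, 2 and 3 were lower (−0.12 and −0.13), beside 8.0% and 8.29% of protein-coding genes with 1500 to 2500 bases. The median of the 188 protein-coding genes under 600 bases was −0.12 in FUN025/+ and −0.13 in FUN025/FUN025, beside −0.32 and −0.24 for the 20 nuclear members of that length. Across the 83 nuclear members, Spearman's rank correlation between log2 fold change and length was 0.41 in FUN025/+ and 0.38 in FUN025/FUN025, against 0.14 and 0.10 across 15018 protein-coding genes. With GC content the rank correlation was −0.18 and −0.15 across the members and −0.38 and −0.35 across the protein-coding genes. With GC content as an offset in the fit, 25 and 19 nuclear members were called lower, and with length as an offset 40 and 35, both chosen after seeing the data. These correlations describe genes of the same libraries, which are not independent replicates.

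**Figure D5:**
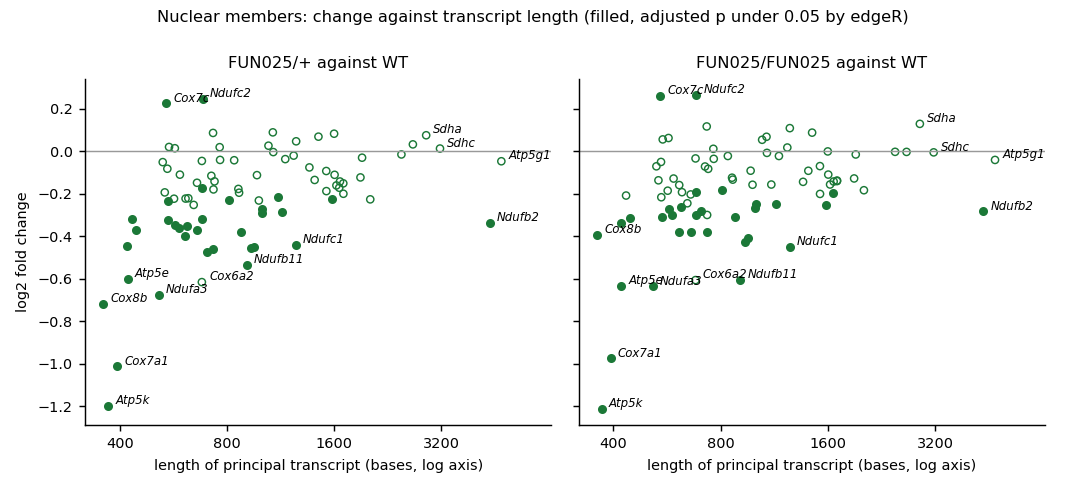
Log2 fold change of each nuclear member against WT (vertical axis) by length of its principal transcript in bases (horizontal log axis), in FUN025/+ and FUN025/FUN025. Filled points had an adjusted p under 0.05 by edgeR. The lowest point in each panel is Atp5k, and called points are sparse at 1500 bases or more.

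The promoters of nuclear respiratory genes are known for sites of the factors NRF1, GABP (an ETS factor), YY1 and ERR. RefSeq promoter windows (GRCm38.p6, 250 bases before to 50 after the start) were matched for 69 of the 86 nuclear members. On either strand, GCGCANGCG (NRF1) was found in 21 members (30.4%) against 9.63% of 17491 protein-coding genes. The letters CCGGAAG (ETS) were in 16 (23.2% against 12.9%), AAGATGGCG (YY1) in 7 (10.1% against 2.14%). The letters TCAAGGTCA (ERR) were in 2 (2.90% against 0.377%) and CCAAT, a common promoter element, in 30 (43.5% against 42.3%). No motif contains another of these letter strings. Of the 29 matched genes called lower in either comparison, 8 held the NRF1 letters (27.6%), and of the 40 others 13 did (32.5%). The ETS letters were in 9 (31%) and 7 (17.5%), and the YY1 letters in 3 and 4. The promoters of Ndufs5 and Atp5h, called lower in both comparisons, and of Sdha and Sdhd, which were not called, show that matches to the NRF1 letters occur in both classes. Their windows are chr4:123718251-123718310, chr11:115420027-115420086, chr13:74350305-74350364 and chr9:50603895-50603954, all on the minus strand and read towards the gene, with the match in capitals.

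Ndufs5: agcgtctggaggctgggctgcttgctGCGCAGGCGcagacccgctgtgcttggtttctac

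Atp5h: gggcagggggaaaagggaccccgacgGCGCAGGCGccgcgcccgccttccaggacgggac

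Sdha: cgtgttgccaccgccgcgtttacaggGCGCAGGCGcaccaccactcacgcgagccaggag

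Sdhd: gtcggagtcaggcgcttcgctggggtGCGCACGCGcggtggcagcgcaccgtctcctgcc

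These matches are descriptions of letters in the window and were not tested as binding sites.

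Genes that build or feed the chain were followed as lists beside the members. The counts that follow stand beside 6.61% of all genes lower and 7.08% higher in FUN025/+, and 7.00% and 7.03% in FUN025/FUN025. Of 15 assembly factors for complex I there were 0 lower and 1 higher in FUN025/+, 0 and 1 in FUN025/FUN025. Of 4 for complex II there were 1 lower and 0 higher in FUN025/+, 1 and 0 in FUN025/FUN025. Of 6 for complex III there were 2 lower and 0 higher in FUN025/+, 1 and 0 in FUN025/FUN025. Of 22 for complex IV there were 2 lower and 1 higher in FUN025/+, 1 and 0 in FUN025/FUN025. Of 5 for complex V, 0 were called in each (with 0 and 0 at an unadjusted p under 0.05 by edgeR). Uqcc2, needed for making cytochrome b, changed most among these, with means of 45.6, 28 and 29.5 CPM in WT, FUN025/+ and FUN025/FUN025 and log2 fold changes of −0.70 in FUN025/+ (adjusted p = 5.82e-04) and −0.63 in FUN025/FUN025 (adjusted p = 0.00174) (edgeR). Its partner Uqcc3 was lower in FUN025/+, with log2 fold changes of −0.26 in FUN025/+ (adjusted p = 0.0413) and −0.10 in FUN025/FUN025 (adjusted p = 0.474) (edgeR). Sdhaf4, which helps the flavoprotein of complex II, had 22.7, 16.9 and 17.6 CPM and was lower, with log2 fold changes of −0.43 in FUN025/+ (adjusted p = 0.0169) and −0.36 in FUN025/FUN025 (adjusted p = 0.0432) (edgeR). Pet100, a complex IV factor, had 15.7, 11.8 and 11.8 CPM and was lower, with log2 fold changes of −0.41 in FUN025/+ (adjusted p = 0.0212) and −0.42 in FUN025/FUN025 (adjusted p = 0.0240) (edgeR). Acad9, a complex I factor, was higher at 27.8, 31.8 and 32.8 CPM, with log2 fold changes of 0.20 in FUN025/+ (adjusted p = 0.0294) and 0.24 in FUN025/FUN025 (adjusted p = 0.0133) (edgeR). For complex IV, Cox16 was higher in FUN025/+, with log2 fold changes of 0.44 in FUN025/+ (adjusted p = 0.0346) and 0.20 in FUN025/FUN025 (adjusted p = 0.363) (edgeR) and Cox20 lower in FUN025/+, with log2 fold changes of −0.20 in FUN025/+ (adjusted p = 0.0483) and −0.15 in FUN025/FUN025 (adjusted p = 0.165) (edgeR).

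Of 14 genes for cytochrome c and ubiquinone synthesis, there were 2 lower and 0 higher in FUN025/+, 2 and 1 in FUN025/FUN025. Coq8a, a regulator of ubiquinone synthesis, had means of 80.2, 57.6 and 55.6 CPM and log2 fold changes of −0.48 in FUN025/+ (adjusted p = 0.00199) and −0.53 in FUN025/FUN025 (adjusted p = 0.00117) (edgeR). Coq10a, a ubiquinone-binding protein, was lower, with log2 fold changes of −0.28 in FUN025/+ (adjusted p = 0.0258) and −0.31 in FUN025/FUN025 (adjusted p = 0.0191) (edgeR), and its paralogue Coq10b gave log2 fold changes of 0.09 in FUN025/+ (adjusted p = 0.558) and 0.32 in FUN025/FUN025 (adjusted p = 0.0324) (edgeR). Of 7 other dehydrogenases that reduce ubiquinone, 1 was lower in each comparison. This was Etfb, the beta subunit of the flavoprotein that hands electrons from fatty acid oxidation to the chain, at 11.5, 12.7, 13.8 and 18.6 CPM in the 4 WT libraries, 6.76 to 8.67 with a median of 7.96 in the 6 FUN025/+ libraries, and 6.69, 7.22, 6.66, 8.62 and 7.16 in the 5 FUN025/FUN025 libraries. All mutant libraries lay below all WT libraries, with log2 fold changes of −0.86 ± 0.13 (SE) in FUN025/+ (adjusted p = 2.01e-04, edgeR) and −0.96 ± 0.13 in FUN025/FUN025 (adjusted p = 8.93e-05). Of 17 genes of the tricarboxylic acid cycle, 1 was lower in FUN025/+ and 0 in FUN025/FUN025 (edgeR, with 4 at an unadjusted p under 0.05). The gene called was Mdh2, malate dehydrogenase, with log2 fold changes of −0.24 in FUN025/+ (adjusted p = 0.0282) and −0.20 in FUN025/FUN025 (adjusted p = 0.0794) (edgeR). Of 8 ATP and phosphate carriers, 0 were called in either comparison by edgeR (2 and 0 at an unadjusted p under 0.05).

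Of 18 genes that copy and express the mitochondrial genome, there were 3 lower and 0 higher in FUN025/+, 2 and 0 in FUN025/FUN025. Polg, the mitochondrial DNA polymerase, gave log2 fold changes of −0.19 in FUN025/+ (adjusted p = 0.00901) and −0.20 in FUN025/FUN025 (adjusted p = 0.00786) (edgeR). Ssbp1, which binds single-stranded mitochondrial DNA, gave log2 fold changes of −0.19 in FUN025/+ (adjusted p = 0.0484) and −0.29 in FUN025/FUN025 (adjusted p = 0.00579) (edgeR). Twnk, the helicase, gave log2 fold changes of −0.25 in FUN025/+ (adjusted p = 0.0196) and −0.21 in FUN025/FUN025 (adjusted p = 0.0518) (edgeR). Of 12 regulators of mitochondrial biogenesis, 0 were called in FUN025/+ by edgeR (2 at an unadjusted p under 0.05) and 1, Yy1, was lower in FUN025/FUN025, with log2 fold changes of −0.08 in FUN025/+ (adjusted p = 0.168) and −0.13 in FUN025/FUN025 (adjusted p = 0.0317) (edgeR). Of 9 genes for the junctions of the inner membrane and for supercomplexes, there were 3 lower and 0 higher in FUN025/+, 3 and 1 in FUN025/FUN025. Immt and Chchd3, subunits of the complex that shapes the cristae junctions, were both lower. Immt had means of 124, 106 and 110.4 CPM and log2 fold changes of −0.22 in FUN025/+ (adjusted p = 0.00455) and −0.16 in FUN025/FUN025 (adjusted p = 0.0301) (edgeR). Chchd3 had means of 65.5, 55.8 and 53.2 CPM and log2 fold changes of −0.23 in FUN025/+ (adjusted p = 0.0159) and −0.30 in FUN025/FUN025 (adjusted p = 0.00374) (edgeR). Higd1a, a small protein of the chain's supercomplexes, was lower, with log2 fold changes of −0.16 in FUN025/+ (adjusted p = 0.0150) and −0.14 in FUN025/FUN025 (adjusted p = 0.0343) (edgeR), and Opa1, the fusion protein of the inner membrane, gave log2 fold changes of 0.12 in FUN025/+ (adjusted p = 0.190) and 0.19 in FUN025/FUN025 (adjusted p = 0.0413) (edgeR).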

How the data were processed

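The authors aligned paired-end reads of oligo(dT)-selected RNA and deposited raw counts of reads per Ensembl gene, 1 table per library. Per the labels, reads were trimmed with Trimmomatic 0.39, aligned to GRCm38 with HISAT2 2.1.0 and counted with featureCounts 2.0.0. Annotation release, strand setting and treatment of reads with several matches are not given in the sources used here. Symbols, positions and RNA sequences came from GENCODE M21.

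A variance filter dropped the least variable 15% of genes (47108 left), and filterByExpr then dropped genes with low counts (18979 left). edgeR 4.0.16 (limma 3.58.1, R 4.3.3) fitted genotype to all 15 libraries with TMM scaling and a robust quasi-likelihood test, adjusted by Benjamini-Hochberg over all genes tested. DESeq2 1.42.0 was an alternative, and tables and figures used Python 3.11.15. The fit was tested on simulated data with known changes. Members, gene lists and tests were chosen with earlier results of these data known. Named genes were all mitochondrial and Sdh genes, the isoform families, untested members, the 4 members per complex and comparison with the smallest adjusted p among those called (complexes I, III, IV and V), and up to 4 called genes per other list. Ndufb9, Ndufa1, Ndufc2, Cox7c, Atp5b and Atp5a1 fall outside this rule, were chosen after their values were seen, and are not among the named results in the closing section. Replicates are labelled as separate libraries of a genotype, and p-values measure their spread. Pairs of replicates differed by more than sampling noise (chi-square per gene 3.06 to 17.2 over 31 pairs, 0 identical). Same-numbered libraries showed no clear shared deviation (mean r −0.28 to 0.08 between genotypes), which does not exclude a pairing. Total counts of 10903183 to 20029919 set the precision, and intervals for single counts were not computed. Other scalings, filters, covariates and left-out libraries were tried.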

Additional observations from a re-analysis of the deposited data

Results flagged for a closer look

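In 14 of 147 groups of libraries examined, 1 library lay far from the others of its genotype by Dixon's test, which chance gives in about 1 in 20 groups. WT replicate 4 was high for Ndufb11 (204 CPM, others 162 to 169), Atp5k (90.5 CPM, others 65.2 to 69.3), Atp5e (130.2 CPM, others 95.9 to 101) and the summed nuclear members (10883 CPM, others 9528 to 9689). In these genes its distance adds to the WT mean, and the calls for Ndufb11, Atp5k and Atp5e held without it.

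Libraries also strayed in the mitochondrial genes that have copies on chromosome 1. WT replicate 2 was high for mt-Co3 (33.7 CPM, others 17.5 to 19.5) and mt-Nd3 (13.2 CPM, others 7.38 to 7.66). FUN025/+ replicate 5 was high for mt-Co3 (179.9 CPM, others 77.1 to 93.3) and mt-Nd3 (22.3 CPM, others 15.7 to 17.6), and FUN025/+ replicate 1 for mt-Nd4l (25.5 CPM, others 10.1 to 15.1). FUN025/FUN025 replicate 4 was high for mt-Atp6 (228 CPM, others 68.4 to 90.0).

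Among the remaining members, FUN025/+ replicate 6 was high for Atp5e (77.4 CPM, others 66.7 to 70.5), FUN025/FUN025 replicate 4 for Cox6c (139 CPM, others 123 to 126) and FUN025/FUN025 replicate 5 for Atp5g2 (81.6 CPM, others 71.2 to 72.5), whereas FUN025/FUN025 replicate 1 was low for Sdhc (129.8 CPM, others 140.2 to 144).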

How the results depend on the processing

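The number of nuclear members called lower (31 in FUN025/+ and 29 in FUN025/FUN025) stayed within 1.5 times under size-factor scaling (30 and 28), upper quartile scaling (27 and 23), scaling without mitochondrial genes (31 and 28), DESeq2 (33 and 29), no low-count filter (36 and 28), 10 counts in every library (31 and 29), the genotypes compared alone (27 and 28, with 1 mitochondrial gene lower in FUN025/+) and libraries thinned to the smallest total (30 and 26). It moved further with muscle and photoreceptor levels as covariates (6 and 6, all among the genes called without them), and in FUN025/FUN025 with protein-coding genes alone (19) and with a GC offset (19). The GC offset also gave 6 mitochondrial calls in FUN025/+ (2 lower) and 7 in FUN025/FUN025 (3 lower), in place of 4 and none lower in each. Leaving out each library gave 17 to 38 lower nuclear members in FUN025/+ and 11 to 31 in FUN025/FUN025, 4 to 6 mitochondrial calls in each, and 0 to 0 nuclear and 0 to 0 mitochondrial calls between the mutant groups. Both lowest counts came without WT replicate 4, and FUN025/FUN025 replicates 1 and 2 each lowered the second count to 18. Mitochondrial genes were called lower only without FUN025/+ replicate 5 or FUN025/FUN025 replicate 3 among those fits. In every one of 29 alternatives, 6 genes were called lower in FUN025/+ (Atp5e, Atp5k, Ndufa1, Ndufa3, Ndufb10 and Ndufb11) and 6 in FUN025/FUN025 (Atp5e, Atp5k, Ndufa3, Ndufb10, Ndufb11 and Ndufc1). Of 138 results for named members, 46 of them called, 0 reversed under any of 14 settings, and 28 calls were lost with the covariates.

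With the replicate number as a block, 42 and 30 nuclear members were called lower, and 1 nuclear member, Cox8b, was called between the mutant groups (adjusted p = 0.0411, edgeR) in place of 0. The labels do not say whether the numbers link libraries of different genotypes. Same-numbered libraries had a mean correlation of −0.28 (WT and FUN025/+), −0.07 (WT and FUN025/FUN025) and 0.08 (FUN025/+ and FUN025/FUN025). These rest on 4, 4 and 5 pairs, which are too few to exclude a pairing.

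WT libraries were deeper than mutant libraries, and thinning matched their totals only. The part of muscle and photoreceptor RNA in the nuclear result was not tested beyond the fit with covariates. Counts over identical mitochondrial and chromosome 1 sequence cannot be assigned to either place. At 3 counts, or 0.15 to 0.275 CPM, mt-Atp8 in WT is only a few times above the floor.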
